A study of Mus musculus with 4 samples.

Results

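The numbered zinc finger protein genes are the mouse genes whose symbol is Zfp followed by a number alone. They were taken from the platform annotation where a probe set carried 1 such symbol, and Zfp36, whose product binds RNA and belongs to another family, was left out. The array measured 304 of them. Of several probe sets of a gene the brightest by its mean over the 4 arrays was used, and the gene was kept where its highest value reached 3.29, the median of all values, which is called the floor here. This left 184 numbered Zfp genes (60.5%) among 11653 genes above the floor, and 64.1% of all 18193 genes reached it. Just outside the floor lay Zfp532 and Zfp689, with highest values of 3.27 each. Just inside lay Zfp526 and Zfp719, with highest values of 3.35 each. The symbol groups genes by their naming history, so the set holds DNA-binding factors together with proteins that act on RNA, ribosomes or the spindle.

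Most proteins of this family carry zinc fingers of the C2H2 type, in which a pair of cysteines and a pair of histidines hold a zinc ion and each finger can contact a few bases of DNA. Many also carry a KRAB domain, which recruits the co-repressor Trim28 and through it the histone methyltransferase Setdb1, so that the bound DNA, often a transposable element, is silenced. Such genes lie in clusters that arose by tandem duplication, and their transcripts are usually of low to moderate abundance.

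The series measured RNA of 4 sorted cell populations with 1 Affymetrix array each. The groups were Trib1-/- granulocyte monocyte progenitors (GMP), wild-type GMP, Trib1-/- cells labelled MDP and wild-type cells labelled MDP, all unstimulated and from mice of a mixed C57BL6J/129SV background. Trib1 encodes a pseudokinase that brings C/EBP-alpha, a myeloid transcription factor, to a ubiquitin ligase. Values are log2 intensities after RMA, which equalises the arrays' distributions, and the RNA was amplified before labelling. The number of animals behind an array, their ages, the sort gates and the deleted part of Trib1 were not stated in the sources used here. With 1 array per group no difference has a replicate check and no test was made, so the text gives sizes and counts. Genes were counted where a log2 difference reached 1, which is 2-fold. In bulk samples, fewer cells of a type and less RNA per cell cannot be told apart.

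The 2 Trib1 probe sets did not separate the genotypes. They read 5.19 and 5.10 in Trib1-/- GMP against 4.85 and 4.95 in wild-type GMP, and 4.71 and 5.56 in Trib1-/- MDP against 5.13 and 5.99 in wild-type MDP. Since the place of the probes relative to the deletion is not known, they check nothing about the labels. All 8 GMP and early granulocyte markers lay above the floor on both GMP arrays, with medians of 8.19 in Trib1-/- GMP and 8.76 in wild-type GMP, against 4.54 in Trib1-/- MDP and 4.60 in wild-type MDP. The 8 monocyte and dendritic cell markers had medians of 7.53 in Trib1-/- MDP and 7.38 in wild-type MDP, against 5.54 in Trib1-/- GMP and 5.71 in wild-type GMP. Of 12 resident macrophage markers 10 lay above the floor. The summed linear intensity of all 12 was 125 in Trib1-/- MDP against 518 in wild-type MDP. Of the C1q genes that define such macrophages, C1qb read 1.94 in Trib1-/- MDP against 4.27 in wild-type MDP, while C1qa and C1qc were below the floor on all arrays. The 7 basophil and mast cell markers summed to 200 in Trib1-/- GMP against 483 in wild-type GMP. Of the B cell list 3 of 4 measured genes lay above the floor. The sum over all 4 was 154 in Trib1-/- GMP against 115 in wild-type GMP and 146 in Trib1-/- MDP against 191 in wild-type MDP. Most of it was Ebf1, with 6.98 in Trib1-/- GMP against 6.43 in wild-type GMP and 6.84 in Trib1-/- MDP against 7.26 in wild-type MDP. Between genotypes in GMP Cd79a differed by 0.68 and Cd79b by -0.93, so the sum does not stand for the list. The macrophage list and the basophil list moved most with the genotype in 1 progenitor each, and the part of these 3 lists in the values below was not tested. Of the erythroid list 1 of 6 measured genes, Tfrc, lay above the floor, and of the T and NK cell list 1 of 4.

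Brightness depends on the probe set as well as on the transcript, and the floor was the same for all genes, so levels are given as array values only. The median over the Zfp genes was 4.72 in Trib1-/- GMP and 4.71 in wild-type GMP, and 4.70 in Trib1-/- MDP and 4.53 in wild-type MDP. The medians over all genes above the floor were 4.75 in Trib1-/- GMP and 4.85 in wild-type GMP, and 4.71 in Trib1-/- MDP and 4.72 in wild-type MDP. The upper quartile of the means over the arrays was 5.58 for the Zfp genes and 5.87 for all genes, and the highest mean was 8.54 against 11.7. Of the 184 genes 151 (82.1%) were above the floor on all 4 arrays and 14 on 1 array only. The arrays were alike over these genes, with correlations of 0.952 between the GMP arrays of the 2 genotypes and 0.954 between the MDP arrays, while wild-type MDP and wild-type GMP were the least alike at 0.881.

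The highest mean of a Zfp gene was that of Zfp263, a KRAB zinc finger factor, which read 8.35 in Trib1-/- GMP against 8.19 in wild-type GMP and 9.11 in Trib1-/- MDP against 8.50 in wild-type MDP. Zfp106, an RNA-binding protein, read 8.40 in both Trib1-/- GMP and wild-type GMP, and 8.36 in Trib1-/- MDP against 7.92 in wild-type MDP. Zfp207, known as BuGZ, which binds Bub3 at the mitotic spindle, read 8.05 in Trib1-/- GMP against 7.52 in wild-type GMP and 8.19 in Trib1-/- MDP against 8.05 in wild-type MDP. By the probe sets used, the largest genotype difference over these 3 genes was that of Zfp263 in MDP, 0.61. The second probe set of Zfp263 differed by 0.56. The 5 probe sets of Zfp106 above the floor differed by -0.38 to 0.67 in GMP and by -0.42 to 0.44 in MDP. The 5 probe sets of Zfp207 above the floor differed by -0.54 to 0.74 in GMP. The direction of both genes there depends on the probe set. The other genes among the 10 with the highest means were Zfp991, Zfp957, Zfp763, Zfp563, Zfp91, Zfp871 and Zfp458. Zfp91, a ubiquitin ligase that acts in NF-kappa-B signalling, read 7.42 in Trib1-/- GMP against 7.32 in wild-type GMP and 7.17 in Trib1-/- MDP against 6.99 in wild-type MDP. Its probe sets above the floor differed by -0.22 to 0.32 in GMP and by -0.41 to 0.50 in MDP.

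The first comparison asks how loss of Trib1 relates to these genes in GMP. Of the 184 genes 1 was at least 2-fold higher in Trib1-/- GMP, where 0.481% of all genes were, and 3 were at least 2-fold lower, where 3.16% of all genes were. The median difference was 0.01 over the numbered Zfp genes and -0.06 over all genes. Differences below 0 made up 45.1% of the Zfp genes and 55.2% of all genes. The middle of the distribution was of like width, with an interquartile range of 0.523 over the Zfp genes and 0.572 over all genes. Thus 2.17% of the Zfp genes and 3.64% of all genes lay 2-fold apart.

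**Figure D1:**
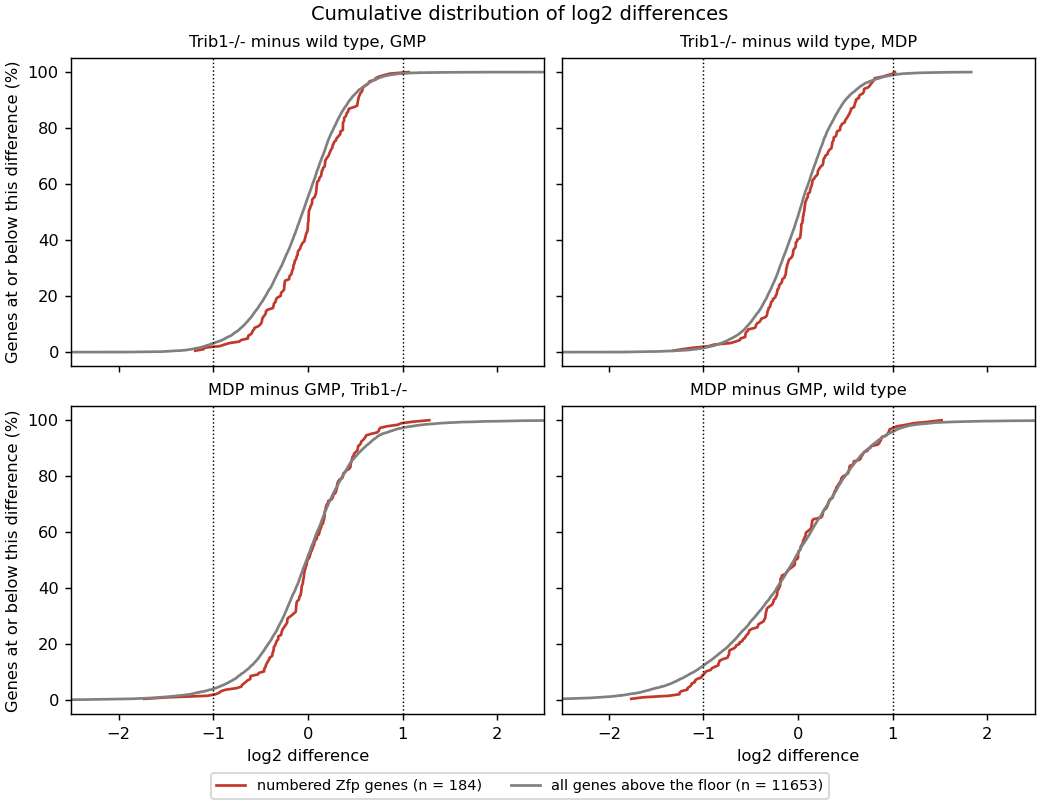
Cumulative distributions of log2 differences (horizontal axes) in the 4 comparisons, as the percent of genes at or below each difference, for the 184 numbered Zfp genes in red and all 11653 genes above the floor in grey. Dotted lines mark 2-fold. The genotype differences of the Zfp genes centre near 0, with medians of 0.01 in GMP and 0.06 in MDP, and genes beyond the axis are not drawn.

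Zfp639 read 3.53 in Trib1-/- GMP against 4.72 in wild-type GMP, and 3.96 in Trib1-/- MDP against 4.13 in wild-type MDP. Wild-type GMP was the high array of the 4, and the difference in GMP was -1.19. Zfp672 read 2.84 in Trib1-/- GMP against 3.95 in wild-type GMP, and 2.44 in Trib1-/- MDP against 2.31 in wild-type MDP. Zfp868 read 2.41 in Trib1-/- GMP against 3.50 in wild-type GMP, and 2.31 in Trib1-/- MDP against 2.58 in wild-type MDP. Both genes passed the floor through wild-type GMP alone, so the size of their differences, -1.10 and -1.09, rests on values under the floor. Zfp963 was the 1 gene at least 2-fold higher, with 4.16 in Trib1-/- GMP against 3.10 in wild-type GMP, and 3.89 in Trib1-/- MDP against 3.52 in wild-type MDP. When values under the floor were raised to it, 1 of these 4 genes, Zfp639, still differed 2-fold, where 0.249% of all genes were then higher and 2.49% lower, and the difference of Zfp963 was 0.88. None of the 4 had a further probe set above the floor.

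The genes next in size mostly had their extreme value in wild-type GMP. Zfp566 read 3.34 in Trib1-/- GMP against 4.27 in wild-type GMP, a difference of -0.93, and Zfp961 read 3.35 against 4.23, a difference of -0.88. On the higher side, Zfp946 read 4.61 in Trib1-/- GMP against 3.81 in wild-type GMP, a difference of 0.80. Zfp40 read 6.60 in Trib1-/- GMP against 5.88 in wild-type GMP, and its 3 probe sets above the floor differed by 0.45 to 0.72. Zfp991 read 8.33 in Trib1-/- GMP against 7.61 in wild-type GMP by its brightest probe set. Its other probe sets above the floor read at most 4.10 and differed by -0.40 and 0.20, so its direction in GMP depends on the probe set. Wild-type GMP held the lowest of the 4 values for 63 of the Zfp genes (34.2%), and for 29.6% of all genes, and the highest for 30.4% of the Zfp genes and 37.1% of all genes.

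In MDP 2 genes were at least 2-fold higher in Trib1-/- cells, where 1.10% of all genes were, and 3 were at least 2-fold lower, where 1.53% of all genes were. The median difference was 0.06 over the Zfp genes and 0.01 over all genes. Differences above 0 made up 59.8% of the Zfp genes and 51.3% of all genes.

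Zfp275 read 4.79 in Trib1-/- MDP against 3.76 in wild-type MDP, and 4.78 in Trib1-/- GMP against 4.74 in wild-type GMP. Zfp367 read 6.45 in Trib1-/- MDP against 5.45 in wild-type MDP, and 6.004 in Trib1-/- GMP against 6.11 in wild-type GMP. For both genes wild-type MDP was the low array, and both differences, 1.02 and 1.003, were as large with values raised to the floor. On the lower side, Zfp821 read 2.26 in Trib1-/- MDP against 3.58 in wild-type MDP, and 2.92 on both GMP arrays. Zfp469, whose human counterpart is a gene of corneal thickness, read 2.49 in Trib1-/- MDP against 3.71 in wild-type MDP, and 3.19 in Trib1-/- GMP against 2.66 in wild-type GMP. Zfp389 read 2.98 in Trib1-/- MDP against 4.08 in wild-type MDP, and 3.09 in Trib1-/- GMP against 2.56 in wild-type GMP. These 3 genes passed the floor through wild-type MDP alone, and their differences of -1.32, -1.22 and -1.10 became -0.29, -0.42 and -0.79 with values raised to the floor. With that change 0.532% of all genes were 2-fold higher in Trib1-/- MDP and 0.687% lower. None of the 5 genes had a further probe set above the floor.

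**Figure D2:**
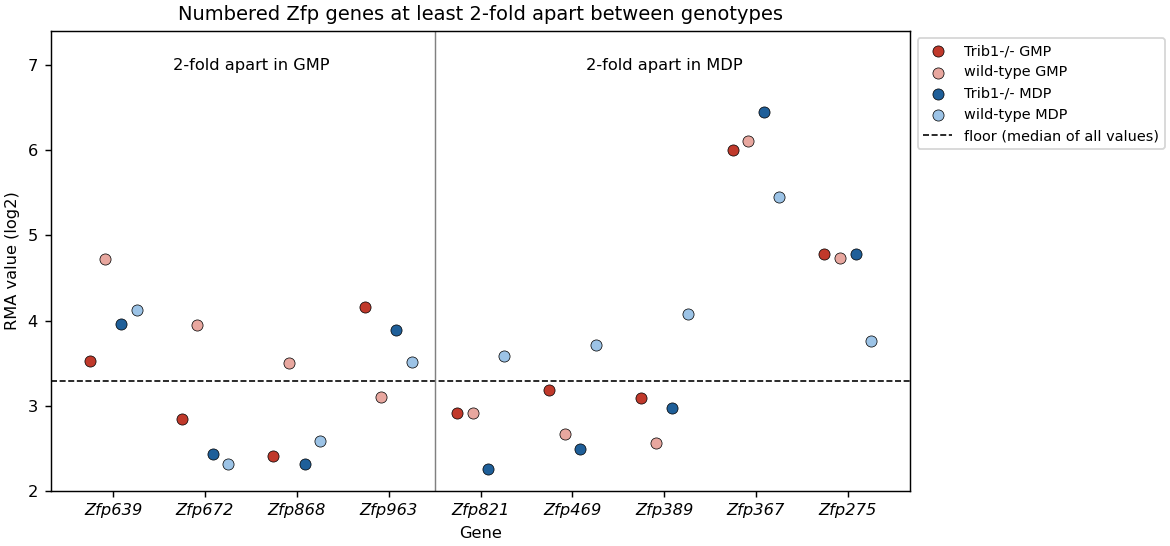
Log2 values on the 4 arrays of the 9 numbered Zfp genes at least 2-fold apart between genotypes in GMP or MDP. Of the 9 genes 6 lie below the floor of 3.29 on at least 1 array (dashed line), while the lowest value of Zfp367 is 5.45.

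Further genes were higher in Trib1-/- MDP by less than 2-fold. Zfp318, which is needed for IgD expression in B cells, read 4.01 in Trib1-/- MDP against 3.06 in wild-type MDP. Its other probe sets above the floor differed by -0.51 and 0.59. Zfp644, a partner of the histone methyltransferases G9a and GLP, read 5.40 in Trib1-/- MDP against 4.59 in wild-type MDP, and its 4 probe sets above the floor differed by -0.56 to 0.80. Zfp512 read 5.71 in Trib1-/- MDP against 4.90 in wild-type MDP. Thus 2 of these 3 genes had a probe set of the opposite direction. Zfp30 read 5.44 in Trib1-/- MDP against 6.33 in wild-type MDP, a difference of -0.89. Its second probe set lay above the floor in wild-type MDP alone. Zfp346, which binds double-stranded RNA, read 2.98 in Trib1-/- MDP against 3.69 in wild-type MDP.

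Since the 2 genotype comparisons share no array, they can be set side by side. Of the 184 genes 58 (31.5%) were higher in the knockout in both progenitors, where 21.6% of all genes were, and 31 (16.8%) were lower in both, where 25.6% of all genes were. Another 42 (22.8%) were higher in GMP and lower in MDP, against 22.9% of all genes, and 52 (28.3%) were lower in GMP and higher in MDP, against 29.5% of all genes. No Zfp gene was 2-fold apart in both, where 0.00858% of all genes were 2-fold higher in both and 0.0944% lower in both. Over the Zfp genes the 2 differences had a Pearson correlation of -0.08 (Spearman -0.10), and over all genes of -0.0065 (Spearman -0.03), given as a description across genes. At a size of 0.5 in both progenitors, Zfp53 and Zfp983 were higher (1.09% of the Zfp genes, 0.764% of all genes) and Zfp317 and Zfp692 were lower (1.09% of the Zfp genes, 2.22% of all genes). Zfp983 differed by 0.64 in GMP and 0.77 in MDP, and Zfp317 by -0.71 and -0.66. Zfp53 differed by 0.60 in GMP and 0.89 in MDP, while its second probe set differed by 0.24 and -0.32.

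**Figure D3:**
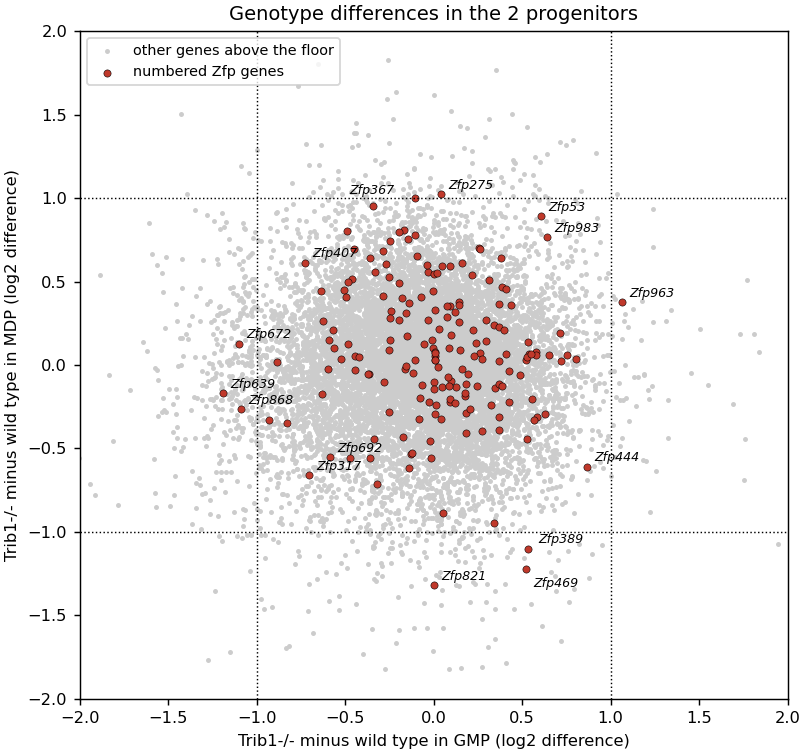
Difference between Trib1-/- and wild type in GMP and in MDP, both on the log2 scale, with a red point for each numbered Zfp gene over the other genes above the floor in grey, and dotted lines at 2-fold. The Zfp genes spread around the origin with no common slope (Pearson correlation -0.08 over 184 genes, and -0.0065 over all genes), and genes beyond the axes are not drawn.

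The next comparison sets MDP against GMP in each genotype. In the knockout 2 Zfp genes were at least 2-fold higher in MDP, where 2.75% of all genes were, and 3 were lower, where 4.08% of all genes were. In wild type 6 were at least 2-fold higher in MDP, where 4.16% of all genes were, and 17 were lower, where 12.4% of all genes were. Centring each array on its median over the genes above the floor turned the wild-type split into 14 higher and 9 lower, where 6.69% of all genes were higher and 9.60% lower, and moved the median over all genes to 0.09 from -0.04, so the split by direction depends on the scaling. The 2-fold share was 2.72% of Zfp genes against 6.82% of all genes in the knockout, and 12.5% against 16.6% in wild type. The 2 comparisons share no array, whereas each shares an array with both genotype comparisons.

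Zfp692, Zfp507 and Zfp39 were 2-fold lower in MDP in both genotypes. No other Zfp gene was 2-fold apart in both progenitor comparisons (1.63% of the Zfp genes, 3.89% of all genes in either direction). Zfp692 read 3.19 in Trib1-/- MDP against 4.92 in Trib1-/- GMP, and 3.74 in wild-type MDP against 5.50 in wild-type GMP. Zfp507 read 5.53 in Trib1-/- MDP against 6.59 in Trib1-/- GMP, and 5.43 in wild-type MDP against 6.60 in wild-type GMP. Zfp39 read 3.27 in Trib1-/- MDP against 4.74 in Trib1-/- GMP, and 3.20 in wild-type MDP against 4.33 in wild-type GMP. In each of the 3 genes both MDP arrays lay below both GMP arrays. The largest differences were those of Zfp692, -1.73 in the knockout and -1.76 in wild type.

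Other genes passed 2-fold in 1 genotype. Zfp563 read 7.73 in Trib1-/- MDP against 7.24 in Trib1-/- GMP, and 8.06 in wild-type MDP against 6.68 in wild-type GMP. Zfp612 read 7.06 in Trib1-/- MDP against 6.31 in Trib1-/- GMP, and 7.10 in wild-type MDP against 5.88 in wild-type GMP. Zfp81 read 5.75 in Trib1-/- MDP against 4.80 in Trib1-/- GMP, and 5.54 in wild-type MDP against 4.40 in wild-type GMP. All 3 lay higher on both MDP arrays than on both GMP arrays. Zfp35 read 5.81 in Trib1-/- MDP against 6.49 in Trib1-/- GMP, and 5.83 in wild-type MDP against 7.08 in wild-type GMP. Zfp710 read 5.71 in Trib1-/- MDP against 4.42 in Trib1-/- GMP, a difference of 1.28, while its second probe set differed by 0.20. Of the 23 genes that were 2-fold apart in wild type, 7 had several probe sets above the floor, and these had 1 direction in 5, the exceptions being Zfp24 and Zfp704.

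The promoters of 5 genes are shown because 4 of them carry the differences described above in GMP, MDP or between progenitors (Zfp639, Zfp963, Zfp275 and Zfp692), and the last, Zfp672, is the coding neighbour of Zfp692. They run from 250 bases before to 50 bases after an annotated start, 5′ to 3′ on the gene's strand, from RefSeq on GRCm38.p6. Zfp672 has 3 starts listed, and the window of 1 of them is shown. The motif shares below also use 1 start per gene. Capitals mark the GC box GGGCGGG, the CCAAT box and the letters ACTACA, a part of the site of the factor ZNF143, on either strand. The windows are chr3:32510342-32510641 on the plus strand for Zfp639, chr8:69749913-69750212 on the minus strand for Zfp963, chrX:73342370-73342669 on the plus strand for Zfp275, chr11:58306819-58307118 on the plus strand for Zfp692 and chr11:58323316-58323615 on the minus strand for Zfp672.
Zfp639: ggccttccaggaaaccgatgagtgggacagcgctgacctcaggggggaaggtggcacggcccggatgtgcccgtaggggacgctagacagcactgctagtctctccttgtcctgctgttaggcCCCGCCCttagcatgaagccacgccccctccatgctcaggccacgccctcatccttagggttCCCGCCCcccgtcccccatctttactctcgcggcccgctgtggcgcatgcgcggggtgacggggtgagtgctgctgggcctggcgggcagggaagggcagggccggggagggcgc
Zfp963: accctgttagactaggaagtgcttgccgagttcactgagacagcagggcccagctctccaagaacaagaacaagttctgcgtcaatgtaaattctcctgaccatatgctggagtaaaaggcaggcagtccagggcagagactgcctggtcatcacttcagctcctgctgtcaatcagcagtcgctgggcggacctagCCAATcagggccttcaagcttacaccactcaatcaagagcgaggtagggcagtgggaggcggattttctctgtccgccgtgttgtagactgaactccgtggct
Zfp275: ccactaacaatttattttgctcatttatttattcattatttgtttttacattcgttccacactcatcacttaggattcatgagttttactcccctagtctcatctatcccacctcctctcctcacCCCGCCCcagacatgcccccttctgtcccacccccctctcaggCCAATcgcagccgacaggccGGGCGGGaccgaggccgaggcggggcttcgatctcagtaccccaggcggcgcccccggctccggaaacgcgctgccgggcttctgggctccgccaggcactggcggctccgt
Zfp692: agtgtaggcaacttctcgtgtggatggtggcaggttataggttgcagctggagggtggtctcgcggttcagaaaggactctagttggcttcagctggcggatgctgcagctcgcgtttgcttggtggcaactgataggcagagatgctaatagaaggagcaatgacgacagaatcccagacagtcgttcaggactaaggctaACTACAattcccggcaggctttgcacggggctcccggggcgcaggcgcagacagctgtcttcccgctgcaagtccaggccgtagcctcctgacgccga
Zfp672: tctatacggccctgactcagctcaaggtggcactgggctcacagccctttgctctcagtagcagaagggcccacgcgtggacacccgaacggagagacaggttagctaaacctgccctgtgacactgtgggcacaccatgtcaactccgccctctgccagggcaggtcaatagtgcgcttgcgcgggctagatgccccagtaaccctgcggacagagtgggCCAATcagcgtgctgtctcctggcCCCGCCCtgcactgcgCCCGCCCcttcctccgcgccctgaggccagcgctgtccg

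Among 153 Zfp genes with a promoter in the RefSeq table, ACTACA occurred in 23.5%, against 10.5% of the promoters of all genes above the floor and 10.7% of all promoters. CCAAT occurred in 47.1% of the Zfp promoters, 38.5% of those of all genes above the floor and 37.9% of all promoters. GGGCGGG occurred in 37.9%, 45.1% and 25.8% in the same order, and the C/EBP letters TTGCNNAA in 4.58%, 8.27% and 10.8%. CCGGAAG of ETS factors occurred in 19.6%, 17.6% and 9.12%, ATGGCG of YY1 in 18.3%, 15.2% and 9.24%, and TGACGT of CRE sites in 15.0%, 11.8% and 7.64%. The E-box CACGTG occurred in 7.84%, 10.02% and 7.24%, and TATAAA in 7.84%, 8.14% and 14.2%. The longer letters of PU.1, NRF1 and the full ZNF143 site occurred in 3.27%, 3.27% and 1.31% of the Zfp promoters, in 3.09%, 2.01% and 0.577% of those of genes above the floor, and in 3.28%, 0.977% and 0.296% of all promoters. A match is a description of letters and not of a bound site. The median GC content was 55.3% in the Zfp promoters and 60.3% in those of all genes above the floor. Zfp692 and Zfp672 are neighbouring coding genes on chromosome 11, and both were 2-fold lower in MDP than in GMP in wild type, by differences of -1.76 and -1.64. With values raised to the floor that of Zfp672 was -0.66, since its MDP value lay under the floor.

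The 2 largest groups of Zfp genes by chromosome were 41 on chromosome 7 and 26 on chromosome 17. The chromosome 17 genes were on balance higher in MDP than in GMP, with a median of 0.30 in the knockout, where 21 of 26 lay above 0 beside 48.4% of all genes, and of 0.29 in wild type, where 18 of 26 did beside 47.2% of all genes. After centring on the array medians 21 of 26 lay above 0 in the knockout, beside 52.3% of all genes, and 20 of 26 in wild type, beside 55.0% of all genes. Their genotype differences had medians of 0.22 in GMP and 0.08 in MDP. The chromosome 7 genes had medians of 0.05 in GMP and 0.05 in MDP between genotypes. Of the 11 genes on chromosome 5, 9 were above 0 in the genotype difference in MDP, beside 51.3% of all genes. Their median of 0.45 was the highest in MDP among chromosomes with at least 9 Zfp genes. In GMP 3 of the 11 were above 0, beside 44.6% of all genes, with a median of -0.11. Between MDP and GMP the median of the 11 was 0.02 in the knockout and -0.35 in wild type. In wild type 9 of the 11 lay below 0, beside 52.6% of all genes. That comparison and the genotype difference in MDP share the wild-type MDP array. A run was defined as at least 5 Zfp genes with at most 10 other coding genes between neighbours, and 4 runs held 38 genes. The run from Zfp54 to Zfp13 on chromosome 17 held 14 genes and had a median genotype difference of 0.43 in GMP, with 11 of 14 above 0, and of 0.14 in MDP. Between MDP and GMP its medians were 0.22 in the knockout, with 12 of 14 above 0, and 0.43 in wild type, with 11 of 14 above 0. The run from Zfp871 to Zfp414 on the same chromosome held 9 genes, with median genotype differences of 0.10 in GMP and 0.09 in MDP, and medians between MDP and GMP of 0.46 in the knockout and 0.27 in wild type. The 2 runs on chromosome 7 held 10 and 5 genes, and their medians between MDP and GMP were -0.01 and -0.04 in the knockout and -0.22 and -0.12 in wild type, where 4 of 10 and 2 of 5 lay above 0. Zfp genes of a cluster are similar in sequence, so probe sets within a run may share transcripts, and 27 of the 184 genes were read by a probe set whose suffix marks possible cross-hybridisation or shared transcripts.

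**Figure D4:**
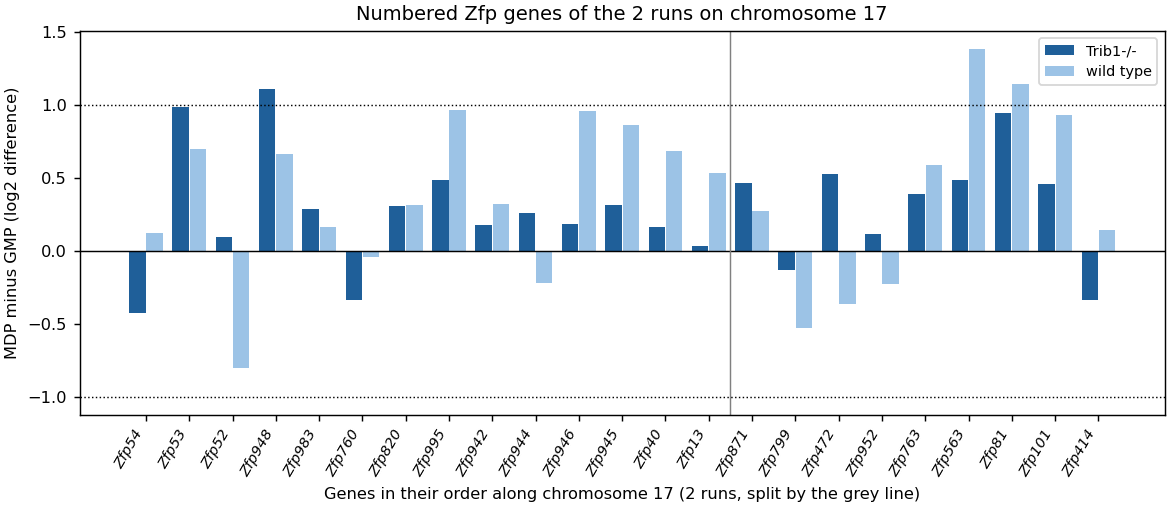
Differences between MDP and GMP, on the log2 scale, in Trib1-/- (dark bars) and wild type (light bars) for the numbered Zfp genes of the 2 runs on chromosome 17, in their order along the chromosome. In the first run 12 of 14 genes lie above 0 in Trib1-/- and 11 of 14 in wild type, and dotted lines mark 2-fold.

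By role, the genes that silence retroelements or keep imprints had 13 members listed, 10 on the array and 4 above the floor. Zfp57, which protects imprints, and Zfp809, which silences murine leukaemia virus, were below it. Zfp445, which also protects imprints, read 6.15 in Trib1-/- GMP against 6.18 in wild-type GMP, and 5.73 in Trib1-/- MDP against 5.17 in wild-type MDP. Its other probe sets differed by -0.23 and -0.62 between genotypes in MDP, opposite to the 0.56 of the one used. Zfp568, which represses a placental promoter of Igf2, read 5.05 in Trib1-/- GMP against 5.25 in wild-type GMP, and 4.68 in Trib1-/- MDP against 4.42 in wild-type MDP. Zfp932, which binds endogenous retroviruses, read 6.15 in Trib1-/- GMP against 6.60 in wild-type GMP, and 6.17 in Trib1-/- MDP against 5.47 in wild-type MDP. With Zfp961 the 4 genes had median genotype differences of -0.32 in GMP and 0.41 in MDP, and none was 2-fold apart between genotypes. Between MDP and GMP their medians were -0.40 in the knockout and -1.07 in wild type. In wild type 3 of 4, Zfp445, Zfp932 and Zfp961, were 2-fold lower, beside 12.4% of all genes. The other probe sets of Zfp445 above the floor differed by -0.55 and -0.12 there, against -1.02 for the one used. The wild-type difference of Zfp961 was -0.94 with values raised to the floor.

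The list of regulators in blood and stem cells had 18 members, 15 on the array and 10 above the floor. None was 2-fold apart in any comparison, and the medians of the genotype differences were -0.16 in GMP and 0.32 in MDP. In MDP 8 of the 10 lay above 0 by the probe sets used, beside 59.8% of the numbered Zfp genes and 51.3% of all genes. The 2 below were Zfp384 at -0.28 and Zfp703 at -0.02. Of the 8, Zfp608 and Zfp217 differed by only 0.03 and 0.05. The second probe set of Zfp608 differed by -0.56. The other probe sets of Zfp318 above the floor differed by -0.51 and 0.59. Zfp148, known as ZBP-89, which binds GC-rich promoters, read 7.04 in Trib1-/- GMP against 6.94 in wild-type GMP, and 6.82 in Trib1-/- MDP against 6.22 in wild-type MDP. All 6 of its probe sets above the floor were higher in Trib1-/- MDP, by 0.19 to 0.90. Zfp281, a regulator of pluripotency, read 6.03 in Trib1-/- GMP against 6.19 in wild-type GMP, and 5.77 in Trib1-/- MDP against 5.46 in wild-type MDP. Zfp410, which activates Chd4, read 5.04 on both GMP arrays, and 4.81 in Trib1-/- MDP against 4.48 in wild-type MDP. The probe sets used for these 3 genes were higher in Trib1-/- MDP by 0.31 to 0.59, while the second one of Zfp410 above the floor differed by -0.08. The second probe set of Zfp281 differed by 0.42 in GMP, opposite to the -0.15 of the one used. Zfp521 and Zfp423, regulators of lineage choice, were below the floor.

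The list of RNA, ribosome, spindle and ubiquitin roles had 13 members, of which 12 were measured and all 12 lay above the floor. None was 2-fold apart, and the medians of the genotype differences were -0.05 in GMP and 0.07 in MDP. Zfp622, a factor of large ribosomal subunit assembly, read 6.62 in Trib1-/- GMP against 7.18 in wild-type GMP, and 6.99 in Trib1-/- MDP against 6.88 in wild-type MDP. Zfp638, which silences unintegrated retroviral DNA with the HUSH complex, read 5.01 in Trib1-/- GMP against 5.28 in wild-type GMP, and 5.54 in Trib1-/- MDP against 4.94 in wild-type MDP. Zfp598, in human cells a ligase that marks stalled ribosomes, read 5.14 in Trib1-/- GMP against 5.05 in wild-type GMP, and 4.82 in Trib1-/- MDP against 5.04 in wild-type MDP.

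**Figure D5:**
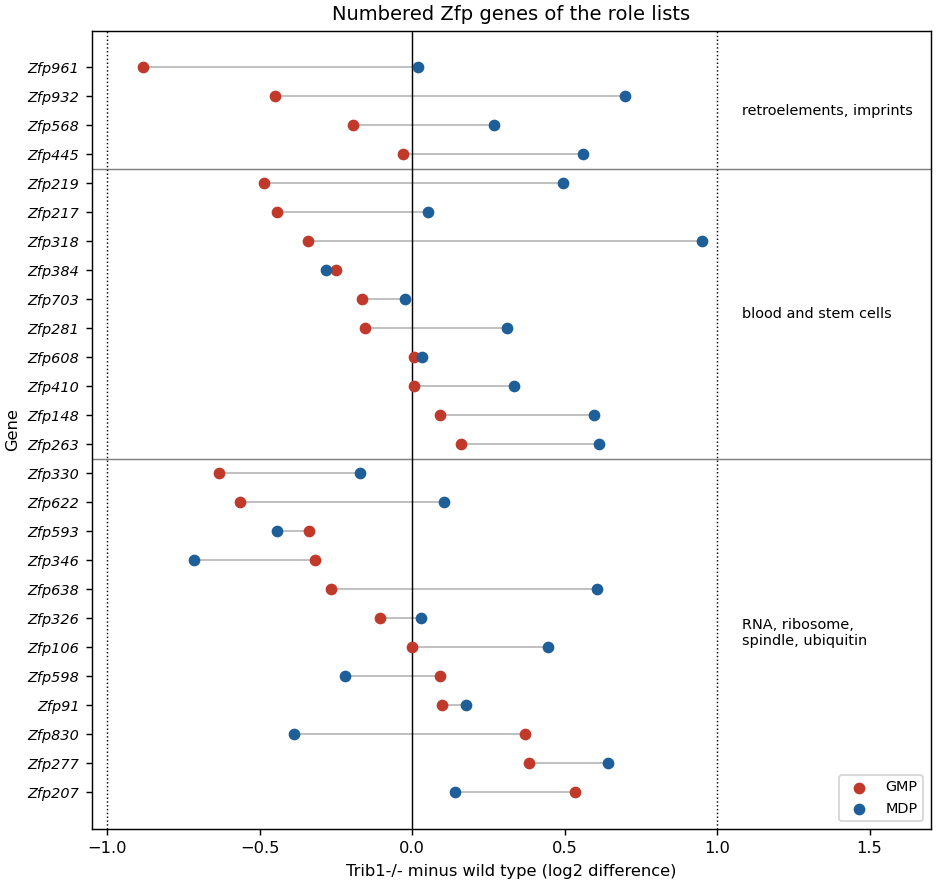
Differences between Trib1-/- and wild type, on the log2 scale, in GMP and MDP for the numbered Zfp genes of the 3 role lists that lay above the floor. No gene of these lists reaches a size of 1 in either progenitor.

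Of 37 co-repressor genes that KRAB zinc finger proteins are known to work with, 34 were measured. Their median genotype difference was -0.01 in GMP, with 0 genes 2-fold apart, and 0.12 in MDP, where 2 of 34 were 2-fold higher, beside the 1.10% of all genes. These were Smarcad1, a chromatin remodeller, with 6.18 in Trib1-/- MDP against 5.17 in wild-type MDP, and Mta2, with 3.12 against 1.82, both under the floor. With values raised to the floor 1 of the 34 remained 2-fold higher, beside 0.532% of all genes. Trim28 read 6.73 in Trib1-/- GMP against 7.25 in wild-type GMP, and 6.45 in Trib1-/- MDP against 6.48 in wild-type MDP. Setdb1 read 5.60 in Trib1-/- GMP against 5.24 in wild-type GMP, and 5.54 in Trib1-/- MDP against 6.04 in wild-type MDP. Neither gene was 2-fold apart between genotypes. Other families by symbol gave median genotype differences in GMP of 0.15 for 29 Zbtb, 0.29 for 14 Klf and -0.20 for 50 Rnf genes. Those of 10 Zscan and Zkscan, 15 Zc3h and 17 Zdhhc genes were -0.12, -0.05 and -0.06. The median in GMP was 0.01 for the numbered Zfp genes and -0.06 for all genes. In MDP the medians of the 6 families, in the same order, were 0.07, -0.04, 0.21, -0.09, 0.04 and -0.10. The median in MDP was 0.06 for the numbered Zfp genes and 0.01 for all genes.

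Where a gene had several probe sets above the floor, their spread gives the only error that could be measured here. Over 69 such Zfp genes the SD between probe sets of a gene was 0.332 for the genotype difference in GMP and 0.421 in MDP, and 0.400 between progenitors in the knockout and 0.528 in wild type. It covers differences between probe sets of 1 array and not the spread between animals. Of the 184 genes 153 (83.2%) were 2-fold apart in no comparison, where 78.5% of all genes were.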

How the data were processed

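RNA of 4 sorted populations was measured on 1 Affymetrix array each, with Trizol extraction and NuGEN Ovation amplification per the labels' protocols. The deposited values are log2 intensities that the authors made with RMA, per the submitters' processing notes. The log2 scale was inferred from their range, 0.141 to 14.5. RMA's version and the array batches were not stated in the sources used here. RMA makes distributions alike, so a change in total RNA cannot be seen. Of 45101 probe sets, 64 controls were left out, 34945 had 1 symbol, 932 several and 9160 were not listed. All 184 symbols matched the reference gene table. Differences were computed with Python 3.11.15 and pandas 2.3.3, and cyclic loess with limma 3.58.1 in R 4.3.3. The counting step was tested on simulated data. The members and lists were chosen with earlier results of these data known. Named genes were the 8 largest differences each way between genotypes, the 5 largest each way between progenitors, the 10 highest means and the role lists. Classes by number of fingers were not made, since protein sequences were not used here. Promoter motifs, 12 in all, were searched on both strands. Alternatives were other floors, values raised to the floor, the mean of probe sets, no suffixed probe sets, cyclic loess, centring on array medians and an added 32.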

Additional observations from a re-analysis of the deposited data

Results flagged for a closer look

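The genotype difference had opposite directions in the 2 progenitors, at a size of at least 0.5 in each, in 4 of the 184 numbered Zfp genes (2.17%), and in 2.90% of all genes. The size was chosen after the values were seen, and the difference between progenitors was not tested, since each group is 1 array. Zfp389 differed by 0.53 between Trib1-/- and wild type in GMP and by -1.10 in MDP. Zfp407 differed by -0.72 in GMP and by 0.61 in MDP. Zfp444 differed by 0.87 in GMP and by -0.61 in MDP, while its second probe set differed by -0.07 and -0.01. Zfp469 differed by 0.52 in GMP and by -1.22 in MDP. Zfp389 and Zfp469 lay above the floor in wild-type MDP alone, and with values raised to the floor their differences in GMP were 0. Those of Zfp407 became -0.33 in GMP and 0.20 in MDP. With that change 1 of the 4 genes, Zfp444, met the size in both progenitors (0.543% of the Zfp genes, 1.83% of all genes).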

How the results depend on the processing

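Counts of Zfp genes at least 2-fold apart and medians over the Zfp genes were pooled, and 25 cases moved while 71 did not. A count moved when it changed by more than 1.5 times, and a median when it shifted by the probe set SD. All 25 were counts. That SD is one of single genes and is wide beside a median over many genes. The 71 cases thus hold medians that could hardly move, and say little about their stability. With no floor, 2 of 304 Zfp genes were higher in Trib1-/- GMP, beside 91 of all 18193 genes. With a floor at the 75th percentile, 102 Zfp genes remained. Of these 0 were higher and 0 lower in Trib1-/- GMP, beside 0.303% and 3.49% of all genes. In Trib1-/- MDP 0 were lower, beside 0.910%, and 1 was higher in MDP than GMP in the knockout, beside 3.18%. With values raised to the floor, 0 were higher and 1 lower in Trib1-/- GMP, beside 0.249% and 2.49% of all genes. In Trib1-/- MDP 0 were lower, beside 0.687%, and 1 was higher in MDP than GMP in the knockout, beside 2.12%. With the mean of probe sets, 142 Zfp genes remained. Of these 1 was higher in Trib1-/- MDP, beside 0.753% of all genes. In the knockout 0 were higher and 1 lower in MDP than GMP, beside 2.04% and 3.06%. In wild type 8 were lower in MDP than GMP, beside 10.1%. Cyclic loess left 1 higher in Trib1-/- MDP, beside 1.18% of all genes. Centring left 1 lower in Trib1-/- GMP, beside 2.02% of all genes. It gave 14 higher and 9 lower in MDP than GMP in wild type, beside 6.69% and 9.60%. Adding 32 to the linear values shrinks differences of weak genes. With it 1 gene was higher and 0 lower in MDP in wild type, beside 0.412% and 2.72% of all genes. All 6 other counts were 0, beside at most 0.558% of all genes. Apart from these constructions the cause was not tested. Of 2032 values of named genes under these alternatives, 115 moved by more than the probe set SD and 44 changed sign, 21 of them with the mean of probe sets. None that changed sign was 2-fold in the report, and 4 were at least 0.5 in size. With the mean of probe sets, the genotype difference of Zfp445 in MDP was -0.10, against 0.56 as reported, and those between MDP and GMP were -0.16 for Zfp608 in the knockout, and -0.13 for Zfp207 and -0.04 for Zfp712 in wild type. The median over the Zfp genes ranged from -0.01 to 0.11 in GMP and from 0.03 to 0.10 in MDP between genotypes. No paired analysis was possible because each group has 1 array. The number of arrays limits the precision.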
